A study of Mus musculus with 2 samples.

Results

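The miR-15/16 and miR-195/miR-497 genes are a family of microRNA (miRNA) genes known for restraint of the cell cycle. They were taken from the count tables by Ensembl identifier and gene symbol, which gave 6 of the 1973 miRNA genes measured: Mir15a, Mir15b, Mir16-1, Mir16-2, Mir195a and Mir497b. The first 5 were read on their own strand. Mir497b was read on its opposite strand, where the gene Mir497 lies. The data came from small RNA sequencing (RNA under 30 bases) of the neural tube of newborn mice of strain B6NCrl at postnatal day 0. There was 1 group of 2 libraries, each from a single neural tube, from pup 2 and pup 1 of 1 dam. The labels name no treatment and no engineered allele, and sex was not recorded for either pup. The design holds no second condition, so what follows gives levels in this tissue and how far the littermates differed. The tubes were sequenced whole, and a lower share from fewer cells of a type cannot be told apart from less RNA per cell.

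A miRNA is cut from a hairpin precursor that has a 5p arm and a 3p arm, and it guides a silencing complex to messenger RNAs that pair with its seed, bases 2 to 8. In mammalian cells the miR-15/16 family is known to repress cyclins D and E, other drivers of entry into S phase, and the survival gene Bcl2. Human MIR15A and MIR16-1 are lost together in many chronic lymphocytic leukaemias. In mice, miR-195 is known for its rise as heart muscle cells leave the cell cycle after birth, and the developing nervous system likewise passes from dividing progenitors to cells that no longer divide.

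The mature 5p sequences are shown because the family is defined by them. They are given 5′ to 3′ from RefSeq (GRCm38.p6), with the seed in capitals. Mir16-1 and Mir16-2 make the same miR-16-5p, and miR-497a-5p comes from Mir497.
miR-15a-5p: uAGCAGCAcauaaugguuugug
miR-15b-5p: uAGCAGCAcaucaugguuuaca
miR-16-5p: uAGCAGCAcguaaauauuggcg
miR-195a-5p: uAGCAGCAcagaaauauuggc
miR-497a-5p: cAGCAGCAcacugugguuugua

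All 5 sequences carry the seed AGCAGCA and were identical over bases 2 to 9. Behind that stretch they differed to unequal degrees. The closest pair was miR-16-5p and miR-195a-5p, with 19 of 21 bases identical and the differences G10A and U11G, counted from 1 at the 5′ end of miR-16-5p. miR-15a-5p and miR-15b-5p were identical at 18 of 22 bases, with the differences A12C, G20A, U21C and G22A, counted likewise from miR-15a-5p. The least alike were miR-16-5p and miR-497a-5p, with 11 of 22 bases identical. Among the 2201 miRNA precursors of GENCODE M21, the precursors of miR-15a, miR-15b, miR-195a and miR-497a shared no stretch of 18 bases with any other, while those of miR-16 shared 23 bases with each other.

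The genes lie in 3 pairs on 3 chromosomes (positions from GENCODE M21, build mm10). Mir15a (chromosome 14, 61632027 to 61632110, minus strand) and Mir16-1 (61631880 to 61631972) are 54 bases apart within Dleu2, a long noncoding RNA gene. Mir15a was intronic to all 8 Dleu2 transcripts over it, and Mir16-1 to 8 of 9, with 1 exonic. Mir15b (chromosome 3, 69009772 to 69009835, plus strand) and Mir16-2 (69009902 to 69009996) are 66 bases apart in introns of Smc4, which encodes a subunit of the condensin complex that packs chromosomes for division. Mir497 (chromosome 11, 70234717 to 70234800, plus strand) and Mir195a (70235042 to 70235135, plus strand) are 241 bases apart, with no other annotated gene over Mir195a. Mir497b (70234692 to 70234816, minus strand) covers all 84 bases of the Mir497 precursor.

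**Figure D1:**
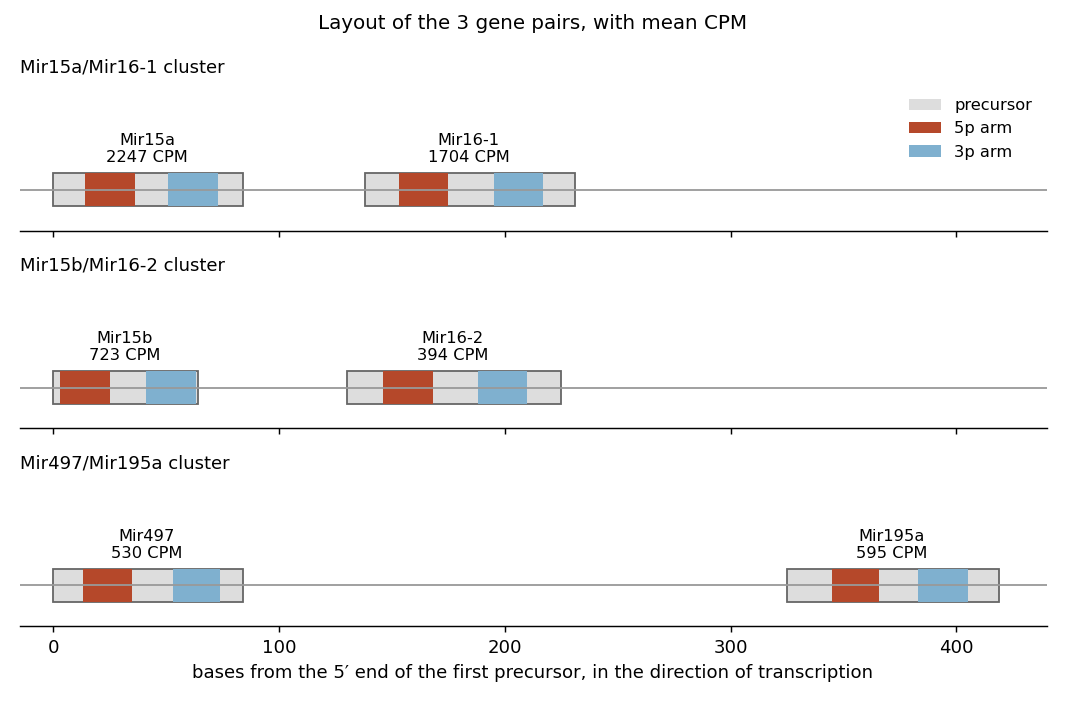
Layout of the 3 gene pairs, in bases from the 5′ end of the first precursor of each pair, drawn in the direction of transcription and to one scale. Grey boxes are precursors, red and blue boxes the 5p and 3p arms, and the mean CPM of the 2 pups stands above each gene, that above Mir497 being the opposite-strand count of Mir497b. The members of the miR-15/16 pairs lie 54 and 66 bases apart, those of the Mir497/Mir195a pair 241 bases.

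Depth was alike in the pups. Own-strand counts summed to 3660693 in pup 2 and 3216453 in pup 1, so 1 count was 0.273 CPM in pup 2 and 0.311 CPM in pup 1 (CPM, counts per 1000000 own-strand counts). Reads that fitted several places, which count towards no gene, made up 35.4% of the reads of pup 2 and 35.7% of those of pup 1. Detection, set at 10 counts or more in each pup, was met by 353 genes and by all 6 members. A read covers a whole mature miRNA, so counts were not divided by gene length, and both arms of a precursor are summed in its count. Intervals below are exact 95% binomial intervals and, like the detection limit, cover counting error only, as no molecular identifiers are stated. Both libraries are littermates' tubes from 1 dam, and SDs are over these 2 libraries.

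In uniquely placed counts the family stood in the upper part of the range of abundance and was led by the pair in Dleu2. Relative to the own-strand total, the 6 genes came to 0.653% in pup 2 (23899 counts, interval 0.645 to 0.661%). In pup 1 they came to 0.586% (18845 counts, interval 0.578 to 0.594%), a mean of 0.619% ± 0.047 (SD, n = 2). These counts include the opposite-strand counts of Mir497b, which the own-strand total does not hold. Mir15a had 2309.7 CPM in pup 2 and 2184 CPM in pup 1. Mir16-1 had 1881 CPM in pup 2 and 1527 CPM in pup 1. These genes of the Dleu2 locus were the highest of the set in both pups.

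Mir15b had 770.3 CPM in pup 2 and 677 CPM in pup 1. Its neighbour Mir16-2 was the lowest of the set, at 449.4 CPM in pup 2 and 339.5 CPM in pup 1. Mir195a had 596 CPM in pup 2 and 594 CPM in pup 1. The 2 tubes were thus closest in Mir195a, with overlapping intervals of 571 to 621 CPM in pup 2 and 567 to 621 CPM in pup 1. Opposite-strand counts at Mir497b came to 523 CPM in pup 2 and 538 CPM in pup 1, with intervals that also overlap.

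**Figure D2:**
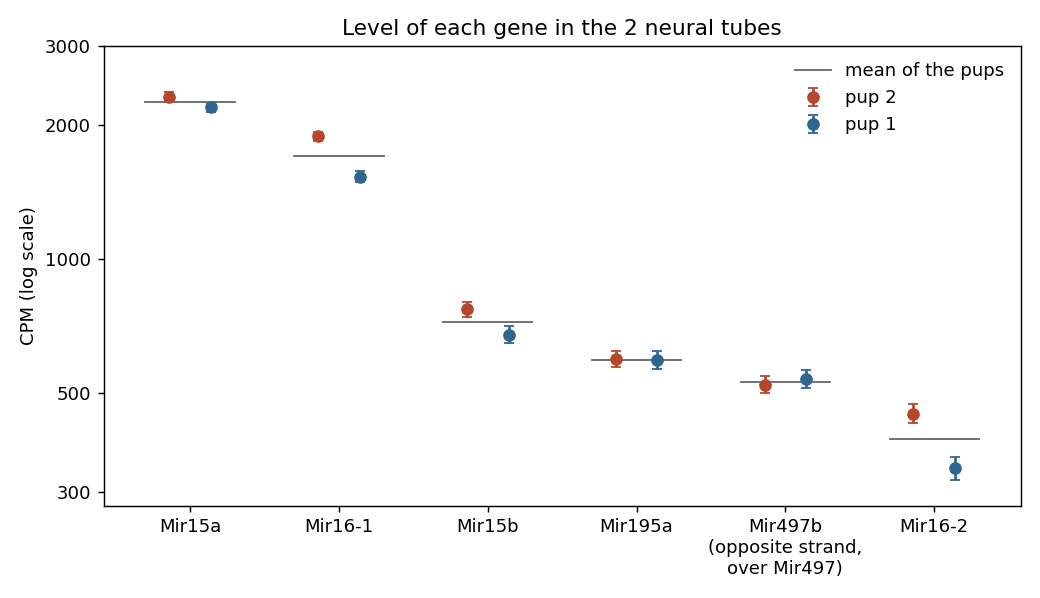
CPM (log axis) of each gene in pup 2 (red) and pup 1 (blue), with exact 95% binomial intervals and a grey line at the mean. Mir15a and Mir16-1 lie at 1527 CPM or above in both pups and the other genes at 770.3 CPM or below. The intervals of the pups overlap for Mir195a and Mir497b but not for Mir15a, Mir16-1, Mir15b and Mir16-2.

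In order of mean CPM the genes ran Mir15a (2247 ± 89.0), Mir16-1 (1704 ± 249.7), Mir15b (723 ± 66.3), Mir195a (595 ± 1.39), Mir497b (530.4 ± 10.6) and Mir16-2 (394 ± 77.7; SD, n = 2). Neighbours in this order were set against a 95% limit from the SD between the pups, pooled over genes of like abundance in 4 classes, on the log2(CPM + 1) scale. Mir15a over Mir16-1 (1.32-fold; difference of 0.41 against a limit of 0.32), Mir16-1 over Mir15b (2.36-fold; 1.23 against 0.37) and Mir497b over Mir16-2 (1.34-fold; 0.44 against 0.41) exceeded it. Mir15b over Mir195a (1.22-fold) and Mir195a over Mir497b (1.12-fold) did not exceed it. Only neighbours were compared in this way. The limit holds only the spread between these 2 libraries. A bias towards some sequences that both libraries share would not show in it and was not tested. Folds between genes, here and below, are thus ratios of counts. With the SD pooled over all detected genes, only Mir16-1 over Mir15b exceeded the limit.

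Among the 353 detected genes the members ranked between 60 (Mir15a) and 134 (Mir16-2). Mir16-1 ranked 74, Mir15b 107, Mir195a 114 and Mir497b 118. These ranks rest on uniquely placed counts. A gene whose reads fit several places can therefore rank too low, which would raise the rank of the others. Of all 1973 genes, 1293 had no counts in either pup. Counting those too, between 93.2% and 97.0% of all genes had a lower mean CPM than a given member.

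**Figure D3:**
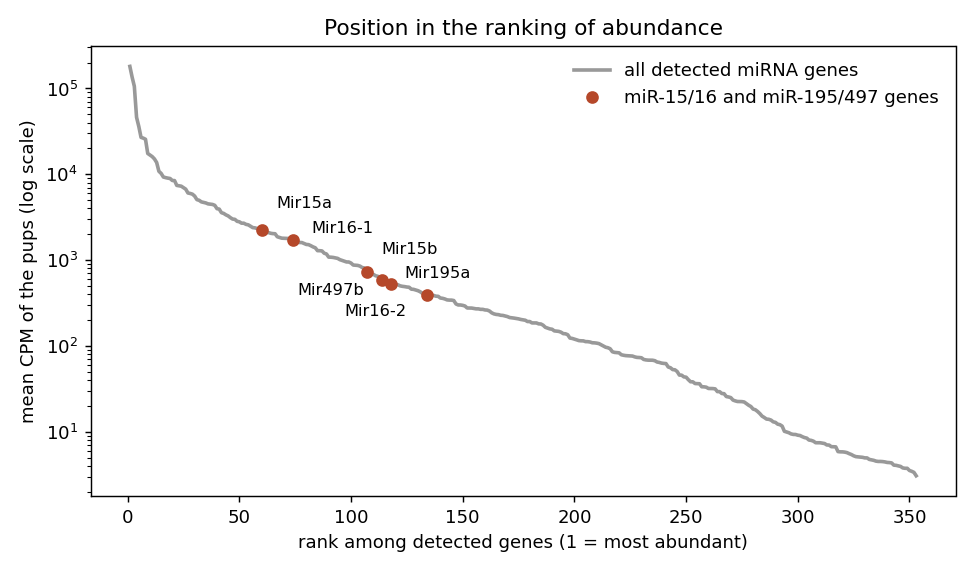
Mean CPM of the pups (log axis) against rank for the 353 detected miRNA genes (grey line), with the 6 genes of the family marked. They sit between ranks 60 and 134, and Mir15b, Mir195a and Mir497b lie close together. Reads that fit several places are left out for all genes.

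Counted by pair, the Dleu2 pair summed to 4190.2 CPM in pup 2 and 3711 CPM in pup 1, the Smc4 pair to 1219.7 CPM in pup 2 and 1016 CPM in pup 1. The Mir195a/Mir497 pair summed to 1119 CPM in pup 2 and 1132 CPM in pup 1. The Dleu2 pair was 3.53-fold above the Smc4 pair and 3.51-fold above the Mir195a/Mir497 pair in mean CPM. Both miR-15/16 pairs held more counts for their miR-15 gene. Mir15a made up 55.1% of its pair in pup 2 (interval 54.3 to 55.9%) and 58.8% in pup 1 (58.0 to 59.7%). Mir15b made up 63.2% of its pair in pup 2 (61.7 to 64.6%) and 66.6% in pup 1 (64.9 to 68.2%). Mir195a made up 53.3% of its pair in pup 2 (51.7 to 54.8%) and 52.5% in pup 1 (50.8 to 54.1%).

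These shares within a pair do not depend on the library total. The log2 ratio of the miR-15 gene to the miR-16 gene was lower in pup 2 by nearly the same amount in both pairs: the difference, pup 2 minus pup 1, was -0.22 in the Dleu2 pair (95% counting interval -0.29 to -0.15) and -0.22 in the Smc4 pair (-0.35 to -0.08). For Mir195a over Mir497b it was 0.05 (-0.08 to 0.17), an interval that holds 0. These intervals hold counting error alone, and with 1 library from each pup the variation between libraries could not be taken into account.

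The miR-16 genes need a separate reading, because reads that fit both cannot be assigned to either. How many such reads there were was not tested. The 5p arm and the bases just after it are shown for both precursors, with the bases that first differ between them in capitals.
Mir16-1: uagcagcacguaaauauuggcguUAA
Mir16-2: uagcagcacguaaauauuggcguAGU

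The precursors share 23 bases, the 22 of miR-16-5p and the base that follows, and first differ at base 24. A read of the plain mature form therefore fits both places and belongs to the multimapping class. A read that fits Mir16-1 or Mir16-2 alone has to reach outside the shared stretch. The 3p arms lie outside it, and are shown to let them be compared.
miR-16-1-3p: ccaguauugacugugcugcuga
miR-16-2-3p: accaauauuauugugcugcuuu

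The counts do not tell the arms apart, so how much of the 6884 counts of Mir16-1 in pup 2 and 4913 in pup 1, or of the 1645 counts of Mir16-2 in pup 2 and 1092 in pup 1, came from the 3p arm was not tested. The counts of Mir16-1 and Mir16-2 leave out reads that fit both, so they are not levels of miR-16-5p, and the order, shares and folds that involve these genes carry the same limit. For the other 4 loci the longest stretch shared with any precursor was 16 bases, between Mir195a and Mir195b. Without the miR-16 genes the family took 0.4199% in pup 2 and 0.399% in pup 1.

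The reads at Mir497b lay on the strand of Mir497. In pup 2, 1914 counts fell on the strand opposite to Mir497b and 2 on its own strand. In pup 1, 1730 counts fell on the opposite strand and 0 on its own. At the other 5 members the opposite strand had 0 counts in both pups, which allows up to 0.820 CPM in pup 2 and 0.933 CPM in pup 1. The annotated mature product of Mir497b has another seed, in capitals, and is shown to set it apart from miR-497a-5p above.
miR-497b: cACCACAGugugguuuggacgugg

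Mir497 has no row of its own in the count tables, and the opposite-strand counts of Mir497b stand in for it. That these reads are miR-497a was not tested, since the tables give strand and not sequence. Their level, 530.4 CPM ± 10.6, was 1.12-fold below that of Mir195a, the other gene of the pair.

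Other genes of the same seed were looked up in RefSeq. Of 1738 mature miRNAs, those of 11 genes carry AGCAGCA: the 5 members read on their own strand, Mir497, Mir322, Mir195b, Mir6342, Mir6353 and Mir6419. Mir195b, Mir6342, Mir6353, Mir6419 and also Mir1907, which was in the list of relatives without a matching seed in RefSeq, had 0 counts in both pups. Mir322, whose human counterpart is MIR424 and which is known to slow division in muscle precursors, had 9397 CPM in pup 2 and 7533 CPM in pup 1, a mean of 8465 ± 1318 CPM (SD, n = 2). It alone was 1.37-fold above the sum of the 6 members and 3.77-fold above Mir15a. Its neighbour Mir503 has the seed AGCAGCG and had 170.5 CPM in pup 2 and 125 CPM in pup 1. The mature forms of this X-chromosomal pair are given for comparison, with the seed in capitals.
miR-322-5p: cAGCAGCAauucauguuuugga
miR-503-5p: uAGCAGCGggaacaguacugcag

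Of the counts of the 6 members and Mir322 together, Mir322 held 59.0% in pup 2 and 56.2% in pup 1. Mir15a held 14.5% in pup 2 and 16.3% in pup 1, Mir16-1 11.8% in pup 2 and 11.4% in pup 1, and each other member between 2.54% and 5.05% in either pup. These shares leave out the multimapping reads, among which those of miR-16-5p would fall.

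**Figure D4:**
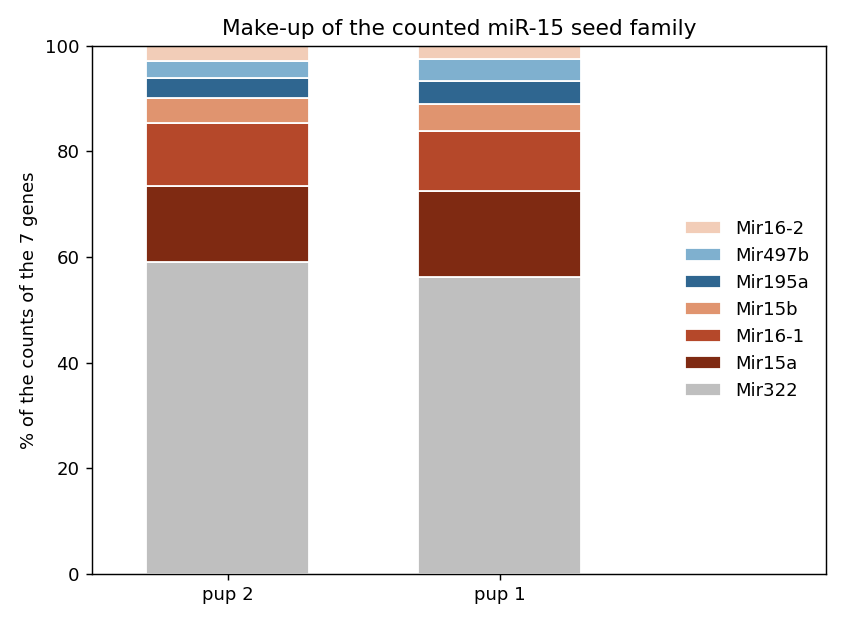
Share (%) of the counts of Mir322 and the 6 genes of the family that each gene held, in pup 2 (left) and pup 1 (right). Mir322 held 59.0% in pup 2 and 56.2% in pup 1, and Mir15a and Mir16-1 were the next largest parts in both.

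The libraries of the pups were first compared on counting error alone. Each of 414 genes with at least 10 counts summed was compared by a two-sided exact binomial test on the library totals, with Benjamini-Hochberg adjustment over all 414. Over all genes, 40.8% were called at an adjusted p under 0.05, with 25.6% higher and 15.2% lower in pup 2. Of the 6 members 4 were called, all higher in pup 2. edgeR's exact test called 0 members, with 0 members and 27 genes at an unadjusted p under 0.05. Its variation between libraries was estimated from these same 2 pups. That estimate holds the difference under test, so the lack of calls cannot decide whether these genes differ. Both tests compare 2 libraries and not conditions.

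The miR-16 genes showed the largest ratios of the family. Mir16-2 was 1.32-fold higher in pup 2 (log2 ratio 0.40, interval 0.29 to 0.52; exact binomial test, adjusted p = 2.9e-12). Mir16-1 was 1.23-fold higher (0.30, 0.25 to 0.35; exact test, adjusted p = 5.1e-28). Mir15b was 1.14-fold higher (0.19, 0.11 to 0.27; exact test, adjusted p = 2.2e-05), and Mir15a 1.06-fold higher (0.08, 0.04 to 0.13; exact test, adjusted p = 0.0017). Neither gene of the third pair was called: the log2 ratio was 0.005 for Mir195a (-0.085 to 0.094; exact test, adjusted p = 0.967) and -0.04 for Mir497b (-0.14 to 0.05; exact test, adjusted p = 0.552). The median log2 ratio was 0.13 over the 6 members and 0.04 over all genes tested.

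The sizes of these differences were set against those of other detected genes of like abundance. Of the 87 other genes in its class, 14.9% had a larger absolute log2 ratio than Mir16-1 and 71.3% a larger one than Mir15a. In the class of Mir16-2 the share was 17.2%, for Mir15b 46.0%, for Mir497b 86.2% and for Mir195a 97.7%. The coefficient of variation that edgeR took from the difference between these same pups was 14.3%. At that value edgeR's exact test called 0 genes in all, and the adjusted p of the members was 0.966 to 1. Mir15a was also no longer called with TMM scaling (log2 ratio 0.04, adjusted p = 0.171, binomial) or DESeq2 scaling (0.04, adjusted p = 0.176, binomial).

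**Figure D5:**
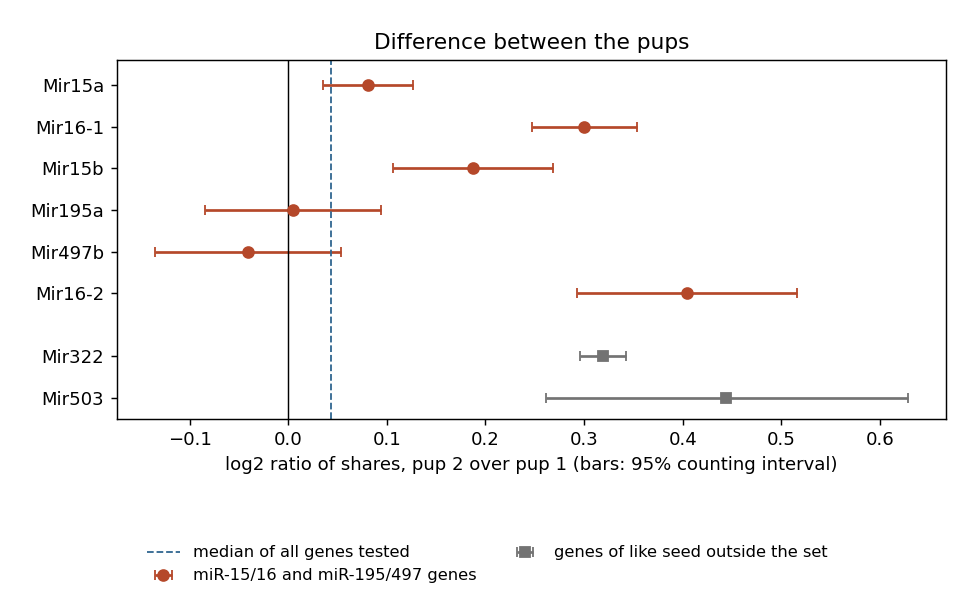
Log2 ratio of pup 2 over pup 1 for each gene (circles) and for Mir322 and Mir503 (squares), with exact 95% binomial intervals, a solid line at 0 and a dashed line at 0.04, the median of all genes tested. Mir16-1 and Mir16-2 lie at 0.30 and 0.40, beside Mir322 at 0.32 and Mir503 at 0.44, and the intervals of Mir195a and Mir497b cover 0.

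Genes related by seed or by role were described from lists. Their calls are from the exact binomial test, which called 25.6% of all genes higher and 15.2% lower in pup 2. Both detected seed relatives were called higher in pup 2, Mir322 with a log2 ratio of 0.32 (interval 0.30 to 0.34; exact binomial test, adjusted p = 2.6e-153) and Mir503 with 0.44 (0.26 to 0.63; exact test, adjusted p = 5.4e-06). Of 9 Mir26, Mir34 and Mir449 genes, whose products also restrain division, 7 were tested. Mir26b and Mir34c were called higher, none was called lower, and 5 were not called (median log2 ratio 0.24). Mir26b, the highest of them in uniquely placed counts, had 14661 CPM in pup 2 and 12757 CPM in pup 1. Reads that fit several places are left out, so levels, calls and order within these lists hold for uniquely placed counts only. The 15 genes of the miR-17-92 cluster and its paralogs, known to promote division, were divided: of 14 tested, 3 were called higher, 3 lower and 8 not, with a median of -0.05. Mir17, the highest of these in uniquely placed counts, had 5239 CPM in pup 2 and 4899 CPM in pup 1, called as higher in pup 2. The 15 genes of this list summed to 15099.9 CPM in pup 2 and 15454 CPM in pup 1. The 6 members summed to 6529 CPM in pup 2 and 5859 CPM in pup 1. Multimapping reads are left out of both sums and the sets differ in size, so the sums do not rank the groups.

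Markers of the tissue and of other cell types were also called between the pups, and their part in the differences above was not tested. The calls here and in the next paragraph are from the exact binomial test and cover counting error only. That test called 25.6% of all genes higher and 15.2% lower in pup 2, so the calls do not establish a different make-up of cells. The 5 hindbrain and spinal cord genes of the Hox clusters, led by Mir10b, summed to 31.1% in pup 2 and 33.6% in pup 1, and all 5 were called lower in pup 2. The neuronal list, led by Mir137, held 2.39% in pup 2 and 2.08% in pup 1, with 5 of 8 tested genes called higher and none lower. Among its members the Mir124a genes, defining for neurons, had only 63 uniquely placed counts in pup 2 and 31 in pup 1. Oligodendrocyte genes (Mir338, Mir219a-2, Mir219a-1) summed to 2220.3 CPM in pup 2 and 1854 CPM in pup 1, with the first 2 called higher. Endothelial Mir126a had 26007 CPM in pup 2 and 27838 CPM in pup 1, called as lower in pup 2.

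Vascular smooth muscle genes summed to 7272 CPM in pup 2 and 7084 CPM in pup 1, with Mir143 called higher and Mir145a not called. Of the striated muscle genes Mir206 had 102 CPM in pup 2 and 69.3 CPM in pup 1, called as higher in pup 2. Mir1a-1 and both Mir133a genes had 0 uniquely placed counts. Reads that fit several places count towards no gene, so these 0 counts do not show that their miRNAs were absent. The measured immune genes summed to 423 CPM in pup 2 and 362 CPM in pup 1, with Mir223 called higher and Mir150 not called. The erythroid genes summed to 152 CPM in pup 2 and 128 CPM in pup 1, with Mir451a called higher and Mir144 not called. The miR-15/16 genes are used by most cell types, so these counts do not place them in any of the cells named.

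The gene nearest to each member in log2(CPM + 1) over the 2 pups was found among the 347 other detected genes. It was Mir154 for Mir15a (distance 0.033, 2361 CPM in pup 2 and 2201 CPM in pup 1). For Mir497b it was Mir101a (0.029, 513 CPM in pup 2 and 535 CPM in pup 1). For Mir16-2 it was Mirlet7c-1 (0.095), for Mir195a Mir384 (0.12), for Mir16-1 Mir132 (0.13) and for Mir15b Mir320 (0.20). With 2 libraries this likeness is one of level alone.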

How the data were processed

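Small RNA libraries of 2 neural tubes were analysed. The tables the authors deposited hold raw read counts for 1973 miRNA genes, on either, its own and the opposite strand. Build mm10 with GENCODE M4 is named in the text beside them, with aligner and counter not given in the sources used here. Multimapping and other rows that name no gene stayed out of totals. Multimapping reads were 35.4% of reads in pup 2 and 35.7% in pup 1, and unmapped reads 11.0% in pup 2 and 10.8% in pup 1. Symbols and positions came from GENCODE M21 (1894 of 1973 identifiers matched), mature sequences from RefSeq. Mir497b entered every step with its opposite-strand count, scaled to the own-strand total.

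With 1 group, edgeR's quasi-likelihood test had no contrast, so the pups were compared across all genes with an exact binomial test; log2 ratios had 0.5 added to each count. The test was tried on simulated data that held counting error only. Alternatives were TMM and DESeq2 scaling, edgeR's exact test, other count minimums, pseudocounts, denominators, strands and leaving out each pup. The members and lists were chosen with earlier results of these data known, so no list is independent support. Named genes were the members, the nearest gene to each, the seed relatives and the highest gene of each list, or all genes of lists of 3 or fewer; the Mir133a, Mir1a-1, Mir124a and Mir34c genes were added after their values were seen. Mir497, Mir9-1, Mir1a-2 and Mir142 of the lists have no row analysed here.

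Figures were drawn with matplotlib 3.10.9; scipy 1.17.1, numpy 2.4.6 and pandas 2.3.3 ran under Python 3.11.15, and DESeq2 1.42.0 and edgeR 4.0.16 under R 4.3.3.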

Additional observations from a re-analysis of the deposited data

How the results depend on the processing

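The mean share of counts held by the 6 genes was 0.619%. It was 0.314% over all reads, 0.756% without Mir10b in the total and 0.566% without Mir497b, each by construction, and 0.410% without the miR-16 genes, an alternative chosen after seeing the data. Either-strand counts gave 0.606%, and the pups on their own 0.586% and 0.653%. All 6 genes were detected with minimums of 1 and 50 counts. TMM and DESeq2 scaling moved every log2 ratio by -0.041, which turned that of Mir195a, not called in either case, from 0.005 to -0.036 and -0.037, and left 3 of the 4 calls. The other count minimums and either-strand counts left 4 calls. edgeR's exact test left 0 of the 4 members and 0 of 169 genes; it takes its dispersion from the same pups. With the SD pooled over all detected genes, 1 of 3 neighbouring pairs exceeded the limit. For single genes, 38 values under alternatives kept their call or stayed within the SD, 14 levels moved by more than the SD (the denominators for all 6 genes, either-strand counts for Mir195a and Mir497b), 6 calls were lost (Mir15a under TMM, DESeq2 and edgeR, and the other 3 under edgeR) and 2 ratios, those of Mir195a, changed sign. Depth limits the ratios least for Mir15a and most for Mir16-2, as the widths of their intervals show. No paired analysis was possible because there was 1 group.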
